A study of Mus musculus with 15 samples.

Results

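The 34 genes described here encode nuclear-coded subunits of complexes I to IV of the mitochondrial respiratory chain, measured in 3 stromal cell fractions of the mouse heart. They are the members of a list of respiratory chain subunits that have a value under the row pairing used here, and they make up 34 of the 13513 named genes. There are 20 members in complex I, 3 in complex II, 4 in complex III and 7 in complex IV. A further 4 subunits of complexes I and III have a value but are not among the 34. The same holds for 7 tissue-restricted or condition-restricted forms. Both sets are given separately below. Gene names rest on an inferred displacement between identifiers and values in the deposited table: the values of an identifier were read 6900 rows further down, and 3 rows more for identifiers that begin with TC10 or TC11. No header or label states this displacement, and every named result depends on it. The pairing leaves 6900 value rows without a name, and the subunits whose identifiers fall outside it were not analysed here.

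Affymetrix arrays were hybridised with RNA of 15 samples, 5 per group, which the design text calls biological replicates. CF are cardiac fibroblasts of unstressed hearts. Both other groups came from hearts 5 days after a myocardial infarction: activated cardiac fibroblasts (aCF) and epicardial stromal cells (EpiSC). All mice were C57BL/6, aged 8 to 12 weeks, and a sham-operated group is not named. Hearts were perfused with collagenase. Shear loosened EpiSC from the heart surface, and no shear was used for CF. For CF and aCF the atria were cut away, and a slow spin with strainers parted the other cells from heart muscle cells, a step the protocol does not give for EpiSC. No source used here gives a cell sort, and whether an aCF and an EpiSC sample of the same number share a heart is not stated. The design text names EpiSC against aCF and aCF against CF as the comparisons. EpiSC against CF was added here, and it differs in isolation as well as in injury and cell type.

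The respiratory chain passes electrons from NADH and succinate to oxygen and pumps protons across the inner mitochondrial membrane. Complex I accepts electrons from NADH and complex II from succinate, ubiquinone carries them to complex III, and cytochrome c carries them on to complex IV, which reduces oxygen. Heart muscle cells are among the cells richest in these complexes, and fibroblasts hold fewer mitochondria. In several subunits of complex IV, a ubiquitous form is replaced by a muscle form in heart muscle.

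The values are log2 signals from which the median of the same probe set across all 15 arrays was subtracted, so a value of 0 is that probe set's middle array and no level above background can be read from it. Base 2 is inferred, because no header names it. Differences were tested with limma across all 22206 rows, with a Bonferroni-adjusted p under 0.05 as the call (the method of the design text) and a Benjamini-Hochberg adjusted p under 0.05 as a second, less strict call. The rows include probe sets that may not be expressed in these cells, and they enter the background percentages below. RNA came from whole fractions, so a lower share of cells of a type and less RNA per cell cannot be told apart. The number of arrays limits the precision.

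Respiratory chain subunits were mostly lowest in CF, between in aCF and highest in EpiSC, with small differences. The mean over the 34 members was -0.089 ± 0.039 in CF (log2, SD over n = 5 arrays), 0.007 ± 0.022 in aCF and 0.091 ± 0.037 in EpiSC. The 5 CF arrays ran from -0.133 to -0.028, the aCF arrays from -0.021 to 0.037 and the EpiSC arrays from 0.047 to 0.144, so the groups did not overlap in this mean. The order CF, aCF, EpiSC from low to high held for the group means of 24 members, among them 6 of the 7 complex IV members. The other orders were CF, EpiSC, aCF for Ndufa3, Ndufb5, Uqcrh and Cox4i1, the reverse order EpiSC, aCF, CF for Ndufb3, Ndufs1 and Uqcrc2, then aCF, EpiSC, CF for Ndufa5 and Ndufs5, and aCF, CF, EpiSC for Ndufa9. Many neighbours in these orders did not differ beyond their spread, as the tests below show.

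**Figure D1:**
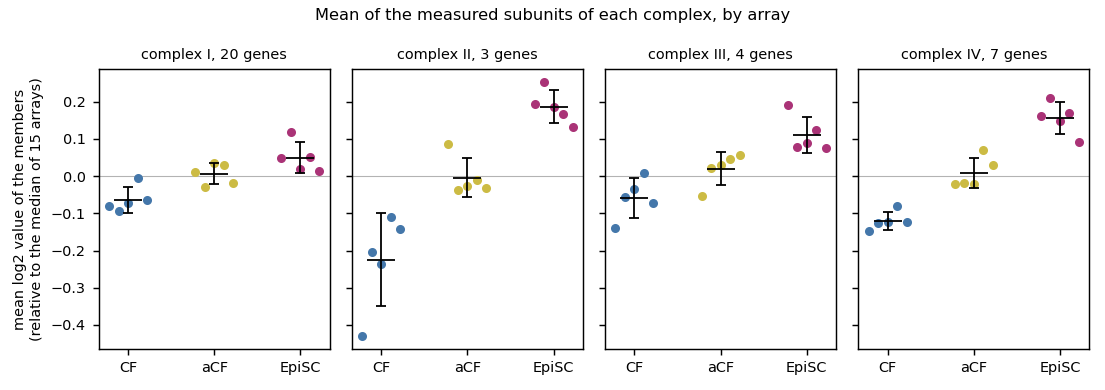
Mean log2 value (vertical axis, relative to each probe set's median) over the members of complexes I, II, III and IV, with 1 point per array, a horizontal line for the group mean and error bars of 1 SD, for CF, aCF and EpiSC. Complex II has the widest span, from -0.225 in CF to 0.187 in EpiSC, and complex IV goes from -0.12 to 0.157.

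No member passed Bonferroni adjustment in limma in any of the 3 comparisons (0 of 34 each). Over all rows, 0.666% passed in EpiSC against aCF, 1.53% in aCF against CF and 2.91% in EpiSC against CF. By Benjamini-Hochberg in limma, 4 members were higher and 1 was lower in EpiSC than in aCF, where 4.61% of all rows were higher and 5.01% lower. In aCF against CF, 5 members were higher and 1 lower, beside 8.74% and 9.38% of all rows. In EpiSC against CF, 18 members were higher and 1 lower, which is 52.9% of members higher beside 14.5% of all rows, with 17.7% of all rows lower. In either direction, 14.7%, 17.6% and 55.9% of members were called in these comparisons, beside 9.61%, 18.1% and 32.2% of all rows. In aCF against CF the members were thus called no more often than all rows. For higher calls alone, the members' share was above that of all rows in each comparison. It was 11.8% against 4.61% and 14.7% against 8.74% in the design's own comparisons, which rests on 4 and 5 members. The members were chosen with earlier results of these data known.

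At an unadjusted p under 0.05, limma gave 13 members higher and 2 lower in EpiSC against aCF (12.0% and 11.9% of all rows), 11 higher and 1 lower in aCF against CF (13.6% and 17.6%), and 22 higher and 1 lower in EpiSC against CF (19.5% and 23.1%). The difference was above 0 for 27, 28 and 29 of the 34 members in these comparisons, beside 52.5%, 44.8% and 48.5% of all rows. The median difference of the members was 0.08, 0.081 and 0.167 on the log2 scale, beside 0.01, -0.022 and -0.008 over all rows. The 3 comparisons share arrays, so their values stand side by side and are not independent of each other.

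No overlap between arrays of both groups was found for 5 members higher and 1 lower in EpiSC against aCF (5.18% and 4.73% of all rows). The same held for 11 higher and 1 lower in aCF against CF (7.88% and 6.84%), and for 19 higher and 1 lower in EpiSC against CF (11.6% and 11.8%).

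**Figure D2:**
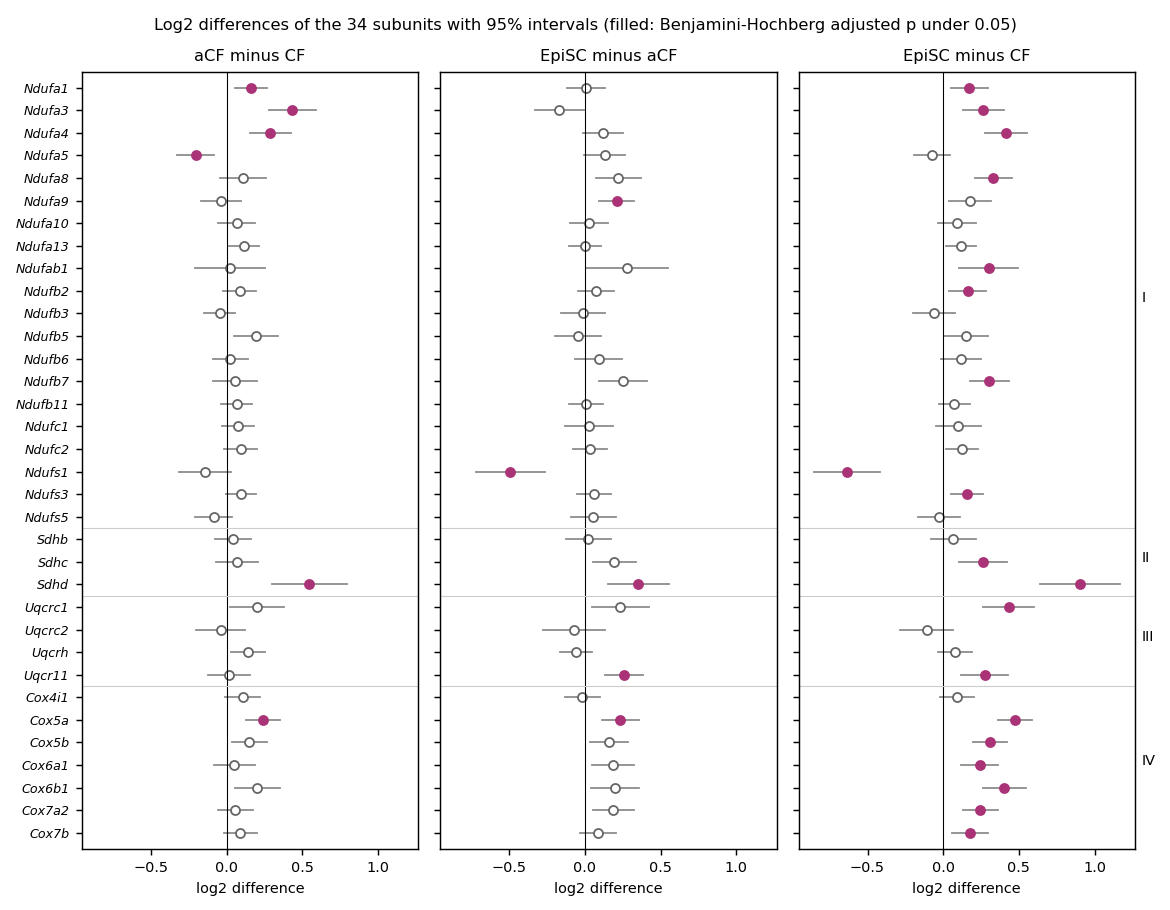
Log2 difference (horizontal axis) of each of the 34 members in aCF against CF, EpiSC against aCF and EpiSC against CF, grouped by complex, with 95% confidence intervals from limma and filled points for members called by Benjamini-Hochberg. Sdhd has the largest positive difference in each panel, 0.55, 0.35 and 0.90, and Ndufs1 the most negative in the 2 panels that hold EpiSC, -0.49 against aCF and -0.64 against CF.

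Nuclear genes of the chain are known for GC-rich promoters, and the factors NRF1 and GABPA, an ETS protein, bind many of them. The stretches before the start of 5 members are shown, because Sdhd, Cox5a and Cox6b1 lie among the members with the largest differences, Uqcr11 rose in EpiSC against aCF and Cox6a1 holds each of the motifs searched for these factors. They are from RefSeq on GRCm38.p6, 250 bases each, 5′ to 3′ along the gene's strand up to the start: Sdhd at chr9:50603850-50604099 (minus strand), Cox5a at chr9:57520982-57521231 (plus), Cox6a1 at chr5:115348959-115349208 (minus), Cox6b1 at chr7:30626115-30626364 (minus) and Uqcr11 at chr10:80406822-80407071 (minus). Capitals mark the palindromic NRF1 site (in Cox6a1 alone, its first run of capitals), TGCGCA (a shorter run also searched for NRF1) and CCGGAAG (an ETS site), searched on both strands, so that CTTCCGG is the ETS match on the other strand. Uqcrc1, Ndufa4 and Ndufa3, not shown, hold none of these letters in the 250 bases before their start. Uqcrc1 (0.43) and Ndufa4 (0.41) had larger differences than Cox6b1 (0.40) in EpiSC against CF. Ndufa3 (0.43) had a larger one than Cox6b1 (0.20) in aCF against CF.
Sdhd: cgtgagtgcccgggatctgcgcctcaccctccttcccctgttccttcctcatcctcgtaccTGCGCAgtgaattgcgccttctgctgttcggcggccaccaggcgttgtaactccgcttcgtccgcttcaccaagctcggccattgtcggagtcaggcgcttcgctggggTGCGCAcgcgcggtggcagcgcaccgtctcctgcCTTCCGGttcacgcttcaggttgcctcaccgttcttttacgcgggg
Cox5a: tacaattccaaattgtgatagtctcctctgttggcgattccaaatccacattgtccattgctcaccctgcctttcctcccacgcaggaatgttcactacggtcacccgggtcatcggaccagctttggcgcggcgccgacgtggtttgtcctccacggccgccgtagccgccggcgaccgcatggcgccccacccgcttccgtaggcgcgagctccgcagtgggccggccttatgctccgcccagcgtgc
Cox6a1: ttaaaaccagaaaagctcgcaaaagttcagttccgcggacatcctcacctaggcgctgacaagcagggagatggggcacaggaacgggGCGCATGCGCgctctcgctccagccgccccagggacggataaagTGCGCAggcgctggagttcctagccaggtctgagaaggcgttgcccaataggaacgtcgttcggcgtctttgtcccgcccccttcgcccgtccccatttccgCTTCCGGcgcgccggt
Cox6b1: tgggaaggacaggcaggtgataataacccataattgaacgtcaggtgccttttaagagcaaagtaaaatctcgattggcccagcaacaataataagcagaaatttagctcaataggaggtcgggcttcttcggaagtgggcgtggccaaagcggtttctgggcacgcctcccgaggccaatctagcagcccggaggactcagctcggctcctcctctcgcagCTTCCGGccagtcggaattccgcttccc
Uqcr11: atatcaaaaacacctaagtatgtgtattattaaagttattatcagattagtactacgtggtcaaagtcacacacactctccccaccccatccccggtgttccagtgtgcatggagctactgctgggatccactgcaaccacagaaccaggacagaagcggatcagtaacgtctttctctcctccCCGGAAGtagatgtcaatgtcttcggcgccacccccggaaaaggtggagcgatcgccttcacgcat

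Of the 34 members, 30 have an entry in the RefSeq promoter table, and Ndufs1, Sdhc, Uqcrc2 and Cox4i1 have none. In windows of 300 bases (250 before and 50 after the start), TGCGCA stood in 9 of 30 member promoters (30.0%) and in 8.06% of all 27025 promoters. It stood in Cox5b, Ndufa8, Ndufb6, Ndufs5, Cox6a1, Ndufa5, Ndufa9, Sdhd and Uqcrc1. CCGGAAG stood in 9 (30.0%, beside 9.12%), which were Ndufs3, Ndufb6, Uqcrh, Sdhb, Cox6a1, Cox6b1, Ndufb7, Sdhd and Uqcr11. At least 1 of both stood in 15 of the 30 (beside 15.8% of all promoters), and both stood in Ndufb6, Cox6a1 and Sdhd (10.0%, beside 1.36%).

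The palindromic NRF1 site stood in Cox6a1 and Uqcrc1 (6.67%, beside 0.977%), and it can overlap TGCGCA. The YY1 letters AAGATGGC stood in Ndufc1, Ndufa9 and Ndufa3 (10.0%, beside 2.88%), the estrogen-related receptor letters TCAAGGTCA in Sdhd (3.33%, beside 0.407%), and TATAAA in Ndufa3 and Ndufb7 (6.67%, beside 14.2%). The median GC content of the 250 bases before the start was 59.2% in member promoters and 52.0% in all promoters. A match describes letters in a window and is neither a site nor a cause. The 15 members with TGCGCA or CCGGAAG had a median difference of 0.24 in EpiSC against CF with 9 higher by Benjamini-Hochberg, and the 15 members with neither had 0.162 with 8 higher. In aCF against CF the medians were 0.054 and 0.09, with 1 higher and 1 lower among the former and 4 higher among the latter. In EpiSC against aCF the medians were 0.188 and 0.026, with 3 higher and 1 higher. Of all rows, 14.5% were higher by Benjamini-Hochberg in EpiSC against CF and 4.61% in EpiSC against aCF. In aCF against CF 8.74% were higher and 9.38% lower. The differences between members with and without these letters were not tested.

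Complex I, the NADH dehydrogenase, is the largest complex of the chain. Its 20 members averaged -0.063 ± 0.035 in CF, 0.006 ± 0.028 in aCF and 0.05 ± 0.042 in EpiSC (log2, SD, n = 5 each). By Benjamini-Hochberg, 1 member was higher and 1 lower in EpiSC than in aCF, 3 were higher and 1 lower in aCF than in CF, and 8 were higher and 1 lower in EpiSC than in CF. In either direction these were 10.0%, 20.0% and 45.0% of the 20 members, beside 9.61%, 18.1% and 32.2% of all rows. The call rate of complex I was thus near that of all rows in the design's own comparisons. The medians of the 20 members were 0.044, 0.07 and 0.138.

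Ndufs1, the largest core subunit and a carrier of iron-sulfur clusters in the arm that oxidises NADH, was the member called lower in EpiSC. Its log2 values were 0.27, 0.09, 0.23, 0.36 and 0.12 in CF, 0.18, -0.04, 0.23, 0 and -0.02 in aCF, and -0.4, -0.27, -0.66, -0.58 and -0.2 in EpiSC. All 5 EpiSC arrays lay below every CF and aCF array, whereas CF and aCF overlapped. Ndufs1 fell by 0.49 ± 0.103 (SE, 0.711-fold) from aCF to EpiSC (Benjamini-Hochberg adjusted p = 0.0138) and by 0.64 ± 0.099 (0.644-fold) from CF to EpiSC (adjusted p = 0.000846). From CF to aCF the difference was -0.14 ± 0.078 (adjusted p = 0.239). Ndufs3, another core subunit, was 0.16 ± 0.048 higher in EpiSC than in CF (adjusted p = 0.0299), with differences of 0.06 in EpiSC against aCF and 0.096 in aCF against CF that were not called.

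Ndufa3, a small accessory subunit in the membrane arm, had the largest complex I difference between aCF and CF. Its values were -0.34, -0.3, -0.3, -0.15 and -0.26 in CF, 0.14, 0.34, 0.18, 0.16 and 0 in aCF, and 0.02, 0.08, 0.04, -0.11 and -0.05 in EpiSC. Every aCF and EpiSC array lay above every CF array. Ndufa3 rose by 0.43 ± 0.069 (1.35-fold) in aCF (adjusted p = 0.00174) and by 0.27 ± 0.06 in EpiSC against CF (adjusted p = 0.00697). EpiSC stood at -0.17 ± 0.073 against aCF (adjusted p = 0.191).

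Ndufa4 carries a complex I name, although its product is now assigned to complex IV. It was counted with complex I here. It is 1 of the 3 complex I members higher in aCF against CF and 1 of the 8 higher in EpiSC against CF. It was -0.35, -0.3, -0.31, -0.12 and -0.31 in CF, -0.06, 0, -0.04, 0.07 and 0.09 in aCF, and 0.06, 0.18, 0.19, 0.19 and 0.05 in EpiSC. CF lay below both other groups, and aCF and EpiSC overlapped. Ndufa4 rose by 0.29 ± 0.061 in aCF against CF (adjusted p = 0.00777) and by 0.41 ± 0.063 in EpiSC against CF (adjusted p = 0.000749).

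Ndufab1, the mitochondrial acyl carrier protein that doubles as a complex I subunit, had the smallest difference of complex I between aCF and CF, 0.022 ± 0.103 with a 95% confidence interval from -0.207 to 0.251. Its values were 0.01, -0.08, -0.08, -0.03 and -0.22 in CF, 0, -0.32, 0.21, 0.08 and -0.26 in aCF, and 0.36, 0.37, 0.13, 0.28 and -0.04 in EpiSC. Both infarct groups were wide for this gene, and all groups overlapped. Its difference in EpiSC against CF was 0.30 ± 0.088 (adjusted p = 0.0249). Ndufa13, also known as GRIM-19, had the smallest difference of all members between EpiSC and aCF, 0.002 ± 0.048 with an interval from -0.104 to 0.108. It was -0.13, -0.11, -0.1, -0.1 and -0.07 in CF, -0.01, 0.01, 0, 0.06 and 0.01 in aCF, and 0, 0.04, 0.02, 0 and 0.02 in EpiSC. All CF arrays lay lower than the others, yet neither difference from CF was called (0.116, adjusted p = 0.0986, and 0.118, adjusted p = 0.0662).

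The accessory subunits Ndufa8 (0.33), Ndufb7 (0.31), Ndufa1 (0.17) and Ndufb2 (0.16) were also higher in EpiSC than in CF by Benjamini-Hochberg. Ndufa1 was in addition 0.16 ± 0.048 higher in aCF than in CF (adjusted p = 0.0376). Ndufa9, which sits where the arms of complex I meet, was the complex I member higher in EpiSC than in aCF, by 0.21 ± 0.052 (adjusted p = 0.0295). Its difference in EpiSC against CF was 0.18 (adjusted p = 0.0513).

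Ndufa5, an accessory subunit of the peripheral arm, was the member that fell in aCF against CF, by 0.20 ± 0.055 (adjusted p = 0.0274). Its values were 0.13, 0.02, 0.08, 0.02 and 0.09 in CF and -0.15, -0.12, -0.03, -0.13 and -0.25 in aCF. These arrays did not overlap, and EpiSC, from -0.08 to 0.07, overlapped with both. Ndufa10, Ndufb3, Ndufb5, Ndufb6, Ndufb11, Ndufc1, Ndufc2 and Ndufs5 were not called in any comparison. Their differences in EpiSC against CF ran from -0.06 for Ndufb3 (interval -0.201 to 0.081) to 0.15 for Ndufb5 (interval 0.004 to 0.296).

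Complex II, succinate dehydrogenase, links the citrate cycle to the chain and has no subunit coded in mitochondrial DNA. Its 3 members averaged -0.225 ± 0.125 in CF, -0.004 ± 0.052 in aCF and 0.187 ± 0.044 in EpiSC, a span set mostly by Sdhd, a membrane anchor. Sdhd was -0.89, -0.4, -0.58, -0.29 and -0.44 in CF, 0.24, -0.07, -0.04, 0 and 0.01 in aCF, and 0.54, 0.46, 0.47, 0.29 and 0.15 in EpiSC. All CF arrays lay below the other groups, and EpiSC and aCF overlapped through the highest aCF array and the lowest EpiSC array.

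Sdhd rose by 0.55 ± 0.111 (1.46-fold) in aCF against CF (Benjamini-Hochberg adjusted p = 0.00641), by 0.35 ± 0.092 (1.28-fold) in EpiSC against aCF (adjusted p = 0.037) and by 0.90 ± 0.119 (1.87-fold) in EpiSC against CF (adjusted p = 0.000309, Bonferroni-adjusted p = 0.347). Sdhc, the other anchor, was 0.26 ± 0.072 higher in EpiSC than in CF (adjusted p = 0.0183), with 0.19 in EpiSC against aCF (adjusted p = 0.0918) and 0.07 in aCF against CF (adjusted p = 0.499). Sdhb, the iron-sulfur subunit, had the smallest differences of the complex, 0.044 ± 0.053 in aCF against CF and 0.024 ± 0.066 in EpiSC against aCF. It was -0.14, -0.11, 0, -0.06 and 0.04 in CF, 0.02, -0.07, 0.03, -0.02 and -0.01 in aCF, and 0.01, 0.03, -0.17, 0.08 and 0.12 in EpiSC. All groups overlapped for Sdhb.

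Sdhd starts 52 bases from Timm8b, a gene on the opposite strand that codes for a chaperone of the mitochondrial import machinery. Timm8b was 0.25 ± 0.073 higher in aCF than in CF (adjusted p = 0.0374) and 0.36 ± 0.057 higher in EpiSC than in CF (adjusted p = 0.000922), with 0.11 ± 0.071 in EpiSC against aCF (adjusted p = 0.392). Another 9 members have a measured neighbour on the opposite strand that starts within 500 bases. Of these neighbours, Lrrc41 beside Uqcrh rose in EpiSC against CF (0.40, adjusted p = 0.0389) and Fam126b beside Ndufb3 fell by 0.45 in aCF against CF (adjusted p = 0.0209), while neither Uqcrh nor Ndufb3 was called. Morn5, Kbtbd4, Mrpl47, Phf14, Asb15, Tssk6 and Rnf113a1 were not called in any comparison.

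Complex III, the cytochrome bc1 complex, averaged -0.059 ± 0.054 in CF, 0.02 ± 0.043 in aCF and 0.11 ± 0.048 in EpiSC over 4 members. Uqcr11, a small subunit, had the largest difference of complex III between EpiSC and aCF and its smallest between aCF and CF. It was -0.16, -0.1, -0.05, 0.14 and -0.01 in CF, -0.05, 0, -0.03, -0.04 and 0.02 in aCF, and 0.26, 0.28, 0.28, 0.28 and 0.09 in EpiSC. Every EpiSC array lay above every aCF array, whereas CF overlapped with aCF and, through its highest array, with EpiSC. Uqcr11 rose by 0.26 ± 0.058 in EpiSC against aCF (adjusted p = 0.0192) and by 0.27 ± 0.07 in EpiSC against CF (adjusted p = 0.0136), while aCF against CF gave 0.016 ± 0.062 with an interval from -0.121 to 0.153.

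Uqcrc1, a core protein facing the matrix, was -0.28, -0.2, -0.17, 0 and -0.23 in CF, -0.1, -0.07, -0.06, 0.19 and 0.16 in aCF, and 0.37, 0.24, 0.13, 0.39 and 0.16 in EpiSC. EpiSC lay above CF throughout, and aCF overlapped with both. Uqcrc1 rose by 0.43 ± 0.076 (1.35-fold) in EpiSC against CF (adjusted p = 0.00174), and its differences of 0.20 in aCF against CF (adjusted p = 0.116) and 0.23 in EpiSC against aCF (adjusted p = 0.123) were not called. Uqcrc2, the partner core protein, was not called and had differences of -0.038, -0.072 and -0.11 in aCF against CF, EpiSC against aCF and EpiSC against CF.

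Uqcrh, the hinge protein that holds cytochrome c1 to cytochrome c, had the smallest difference of complex III between EpiSC and aCF, -0.06 ± 0.048. It was -0.18, -0.09, -0.01, -0.11 and -0.03 in CF, 0.07, 0.01, 0.04, 0.08 and 0.08 in aCF, and -0.02, 0.01, -0.02, 0 and 0.01 in EpiSC. The aCF arrays lay above all CF arrays, but the difference of 0.14 was not called (adjusted p = 0.0862).

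Complex IV, cytochrome c oxidase, averaged -0.12 ± 0.024 in CF, 0.008 ± 0.04 in aCF and 0.157 ± 0.042 in EpiSC over its 7 members. In EpiSC against CF, 6 of the 7 rose by Benjamini-Hochberg, and in each of the other comparisons 1 did, Cox5a both times. Of all rows, 14.5% were higher in EpiSC against CF, 8.74% in aCF against CF and 4.61% in EpiSC against aCF. Cox5a, a subunit on the matrix side, was -0.14, -0.23, -0.24, -0.2 and -0.24 in CF, -0.02, -0.02, 0, 0.07 and 0.11 in aCF, and 0.22, 0.29, 0.29, 0.32 and 0.19 in EpiSC. The 3 groups did not overlap. Cox5a rose by 0.24 ± 0.051 (1.18-fold) in aCF against CF (adjusted p = 0.00856), by 0.23 ± 0.056 (1.18-fold) in EpiSC against aCF (adjusted p = 0.0259) and by 0.47 ± 0.051 (1.39-fold) in EpiSC against CF (adjusted p = 8.52e-05). Its Bonferroni-adjusted p in EpiSC against CF was 0.0577, the lowest of the members.

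Cox6a1 had the smallest difference of the complex between aCF and CF, 0.052 ± 0.062. It was -0.17, -0.18, -0.15, 0 and -0.14 in CF, -0.15, -0.15, -0.13, 0.02 and 0.03 in aCF, and 0.18, 0.15, 0.04, 0.1 and 0.09 in EpiSC. EpiSC lay above both other groups, which overlapped, and its difference was 0.24 ± 0.056 against CF (adjusted p = 0.00864) and 0.19 ± 0.063 against aCF (adjusted p = 0.0926). Cox4i1, the ubiquitous form of subunit IV, had the smallest difference of complex IV between EpiSC and aCF, -0.016 ± 0.052, and was not called against CF in EpiSC (0.09, interval -0.021 to 0.201) or in aCF (0.106, adjusted p = 0.191). It was -0.11, -0.13, -0.03, -0.02 and -0.01 in CF, 0, 0.03, 0, 0.09 and 0.11 in aCF, and 0.02, 0.04, -0.02, 0.07 and 0.04 in EpiSC. The aCF arrays all lay above the CF arrays, and the EpiSC arrays overlapped with both.

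The other 4 members of complex IV rose in EpiSC against CF. Cox6b1, which faces the intermembrane space, rose by 0.40 ± 0.063 (adjusted p = 0.000877), Cox5b by 0.31 ± 0.05 (adjusted p = 0.00102), Cox7a2 by 0.25 ± 0.053 (adjusted p = 0.0057) and Cox7b by 0.18 ± 0.054 (adjusted p = 0.0303). Their differences in EpiSC against aCF ran from 0.086 for Cox7b to 0.20 for Cox6b1, and in aCF against CF from 0.058 for Cox7a2 to 0.20 for Cox6b1, none of them called.

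**Figure D3:**
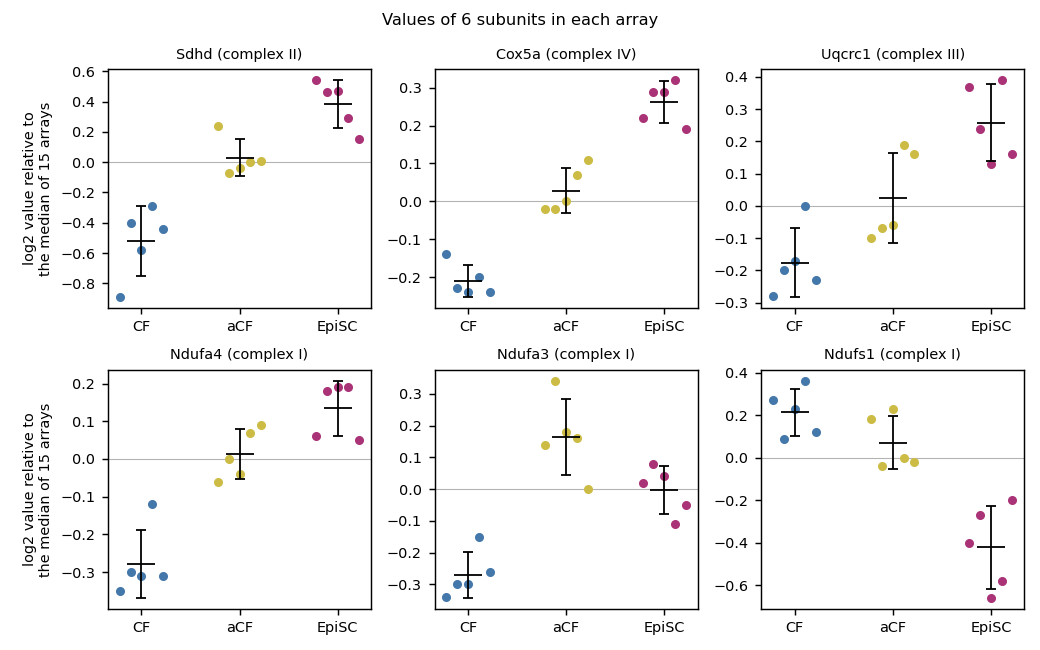
Log2 values relative to each probe set's median (vertical axis) of Sdhd, Cox5a, Uqcrc1, Ndufa4, Ndufa3 and Ndufs1, with 1 point per array, a horizontal line for the group mean and error bars of 1 SD in CF, aCF and EpiSC, each panel on its own scale. The 5 EpiSC arrays of Ndufs1 lie from -0.66 to -0.2, below all others, and the 5 EpiSC arrays of Cox5a from 0.19 to 0.32, above all others.

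Leaving out each array in turn left the number of Bonferroni calls at 0 in every comparison. In EpiSC against CF, 14 of the 19 calls by Benjamini-Hochberg held in all 10 omissions, and the count ran from 14 to 19. The 5 others were Cox7b, lost without CF1, CF4, CF5, EpiSC1, EpiSC2, EpiSC3 or EpiSC4 (adjusted p up to 0.07), Ndufs3, lost without CF1, CF2, CF3, CF5, EpiSC1, EpiSC2 or EpiSC4 (up to 0.0669), and Ndufab1, lost without CF3, CF5, EpiSC1, EpiSC2 or EpiSC4 (up to 0.0593). Ndufa1 held only without CF4 or EpiSC1 (up to 0.0817 otherwise), and Ndufb2 held only without CF4 or EpiSC3 (up to 0.107). In aCF against CF, Cox5a, Ndufa3, Ndufa4 and Sdhd held throughout. Ndufa1 was lost without CF1, CF2, CF3, aCF1, aCF2, aCF3 or aCF4 (up to 0.0873) and Ndufa5 without CF1, CF3, CF5, aCF4 or aCF5 (up to 0.0677).

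In EpiSC against aCF, Ndufs1 and Uqcr11 held in all 10 omissions. Sdhd held only without EpiSC5 or aCF1 (adjusted p up to 0.0882 otherwise). Cox5a was lost without EpiSC2, EpiSC3, EpiSC4, aCF1, aCF2 or aCF3 (up to 0.0672), and Ndufa9 without EpiSC1, EpiSC2, EpiSC3, aCF2, aCF3, aCF4 or aCF5 (up to 0.0754). The count of 5 became 3 without EpiSC1 or EpiSC4 and 2 without EpiSC2, EpiSC3, aCF2 or aCF3. With both aCF4 and aCF5 left out, Uqcr11 (adjusted p = 0.0691), Ndufa9 (0.104) and Sdhd (0.133) lost their calls. That fit called 3 members higher and 1 lower, among them Cox5a and Ndufs1.

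Tissue-restricted and condition-restricted forms of the subunits were mostly highest in CF, unlike most of the 34 members, and this contrast was not tested. Of 7 measured, 1 rose and 6 fell in EpiSC against CF by Benjamini-Hochberg, 1 rose and 2 fell in aCF against CF, and 2 fell in EpiSC against aCF. In either direction these were 100.0%, 42.9% and 28.6% of the 7, beside 32.2%, 18.1% and 9.61% of all rows. Cox8b, a form of heart and skeletal muscle, was 0.94, 0.79, 1.05, 1.15 and 0.96 in CF, 0.46, 0, 0.67, -0.35 and -0.03 in aCF, and -0.2, -0.89, -0.84, -0.79 and -0.23 in EpiSC. It stood higher in all CF arrays than in any other. Cox8b fell by 1.57 ± 0.152 (0.337-fold) in EpiSC against CF (Bonferroni-adjusted p = 0.0207) and by 0.83 ± 0.174 in aCF against CF (Benjamini-Hochberg adjusted p = 0.00786). The Bonferroni call held when EpiSC1 or EpiSC5 was left out and was lost without any 1 of the other 8 arrays (adjusted p up to 0.135).

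Cox7a1, the muscle counterpart of Cox7a2 (-0.068 in CF and 0.178 in EpiSC on average), was 0.88, 0.41, 0.95, 1.09 and 0.91 in CF, 0.35, -0.04, 0.46, -1.21 and -1.2 in aCF, and -0.09, -0.23, 0, -0.57 and -0.54 in EpiSC. The aCF arrays spread widely, with aCF4 and aCF5 lowest. Cox7a1 fell by 1.13 ± 0.15 in EpiSC against CF (adjusted p = 0.000324) and by 1.18 ± 0.339 in aCF against CF (adjusted p = 0.0357), a call lost without aCF4 and aCF5 (adjusted p = 0.0565). Cox6a2, the muscle counterpart of Cox6a1, fell by 0.48 ± 0.07 in EpiSC against CF (adjusted p = 0.000573) and by 0.35 ± 0.073 in EpiSC against aCF (adjusted p = 0.0132).

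Cox6b2, known from testis, was -1.67, -1.39, -1.16, -1.2 and -0.94 in CF, 0.3, 0.04, 0.19, 0.07 and 0 in aCF, and 0.21, 0.11, 0.3, -0.17 and -0.46 in EpiSC. All CF arrays lay below the rest. Cox6b2 rose by 1.39 ± 0.125 (2.62-fold) in aCF against CF (Bonferroni-adjusted p = 0.00832) and by 1.27 ± 0.169 in EpiSC against CF (Benjamini-Hochberg adjusted p = 0.00033). The Bonferroni call in aCF was lost without CF2 (0.0542), without aCF3 (0.0534) and without both aCF4 and aCF5 (0.189). Cox4i2, an oxygen-responsive form of subunit IV, fell by 0.68 ± 0.11 in EpiSC against CF (adjusted p = 0.00104) and by 0.51 ± 0.096 in EpiSC against aCF (adjusted p = 0.00853). Ndufa4l2, a hypoxia-induced relative of Ndufa4, fell by 0.62 ± 0.17 and Cox7b2 by 0.26 ± 0.068 in EpiSC against CF (adjusted p = 0.0186 and 0.0165).

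Heart muscle markers were highest in CF as well. The mean of the 24 markers measured ran from 0.131 to 0.366 over the CF arrays, from -0.391 to 0.272 over aCF and from -0.498 to -0.238 over EpiSC. In EpiSC against CF 14 of 24 fell and 1 rose by Benjamini-Hochberg, with Myl2 (-2.76), Tnnt2 (-2.24) and Myl3 (-2.19) past Bonferroni, and Myl7, an atrial light chain, was the gene that rose (1.85). Called in either direction were 62.5% of the markers, beside 32.2% of all rows. Medians of the list were -0.215 in EpiSC against aCF, -0.256 in aCF against CF and -0.525 in EpiSC against CF. The arrays aCF4 and aCF5 had the lowest marker means of their group, -0.391 and -0.358. The part of heart muscle RNA in these results was not tested. In EpiSC against CF the median difference of the 34 members was 0.167 and that of the heart muscle markers -0.525. Without aCF4 and aCF5, 2 of the 6 Benjamini-Hochberg calls in aCF against CF were left, Sdhd and Ndufa3. In that fit, which rests on fewer aCF arrays, the median difference of the members was 0.071, beside 0.081 with all arrays.

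**Figure D4:**
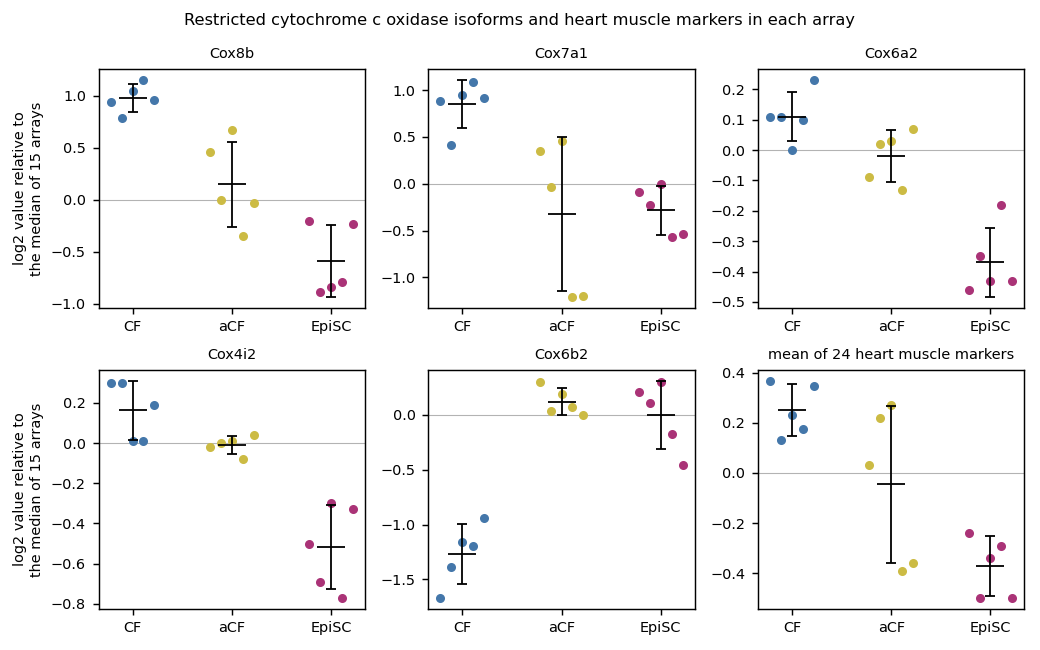
Log2 values relative to each probe set's median (vertical axis, each panel on its own scale) of the complex IV forms Cox8b, Cox7a1, Cox6a2, Cox4i2 and Cox6b2 and the mean of 24 heart muscle markers, with 1 point per array, a horizontal line for the group mean and error bars of 1 SD in CF, aCF and EpiSC. The arrays aCF4 and aCF5 lie lowest of the aCF arrays both for Cox7a1, at -1.21 and -1.2, and for the marker mean, at -0.391 and -0.358.

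Markers of the other cell types were also read from these arrays, without a level that could show absence, because the values are centred. Counts below are by Benjamini-Hochberg unless Bonferroni is named. Of all rows, 4.61% were higher and 5.01% lower in EpiSC against aCF, and 8.74% were higher and 9.38% lower in aCF against CF. In EpiSC against CF 14.5% were higher and 17.7% lower. Epicardial markers averaged 1.519 to 2.269 over the EpiSC arrays, -0.917 to -0.203 over CF and -0.693 to 0.269 over aCF. In EpiSC against aCF 9 of 11 epicardial markers rose, with Wt1, Bnc1, Dmkn, Gata5, Nkain4 and Rspo1 past Bonferroni, and in EpiSC against CF these and Lrrn4 passed it. Of 15 fibroblast markers, 6 rose and 3 fell in aCF against CF, with Col1a1, Col1a2, Col3a1, Pdgfrl and Fn1 rising and Gsn and Ddr2 falling past Bonferroni, and array means ran from -0.153 to -0.075 in CF, 0.114 to 0.164 in aCF and -0.301 to 0.077 in EpiSC. In EpiSC against CF 6 of the 15 rose and 7 fell, with Col1a1, Col1a2, Fn1 and S100a4 rising past Bonferroni. In EpiSC against aCF 1 rose and 8 fell, with Pdgfrl falling past Bonferroni. Macrophage markers averaged -0.203 to 0.003 in CF, 0.155 to 0.383 in aCF and -0.187 to -0.047 in EpiSC. Of 15 macrophage markers, 7 were higher in aCF than in CF, with Ctss past Bonferroni. In EpiSC, 7 were lower than in aCF, and none was called against CF. Endothelial markers averaged 0.133 to 0.506 in CF, -0.162 to 0.326 in aCF and -0.509 to -0.392 in EpiSC. Of 13 endothelial markers, 2 rose and 9 fell in EpiSC against CF, and 1 rose and 5 fell in EpiSC against aCF. In aCF against CF 1 rose and 3 fell. Past Bonferroni, Aqp1 rose in EpiSC against both other groups, Ptprb fell against aCF and Cdh5 against CF. Mural markers averaged -0.786 to -0.114 in CF, 0.332 to 0.693 in aCF and -0.91 to -0.407 in EpiSC. Of 10 mural markers, 3 rose and 6 fell in EpiSC against CF, and 1 rose and 7 fell in EpiSC against aCF. In aCF against CF 6 rose and none fell. Past Bonferroni, Tagln and Cnn1 rose in both infarct groups against CF, Des rose in EpiSC against both other groups, Rgs5 and Higd1b fell in EpiSC against aCF, and Vtn fell in EpiSC against CF. The part of these shifts in cell makeup in the members' differences was not tested.

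Other genes of mitochondrial energy supply were read from the same fits. Of 10 ATP synthase genes, 8 rose in EpiSC against CF, 3 in aCF against CF and 2 in EpiSC against aCF by Benjamini-Hochberg, and none was called lower. That is 80.0%, 30.0% and 20.0% higher, beside 14.5%, 8.74% and 4.61% of all rows. The medians of the 10 genes were 0.336, 0.172 and 0.121. Atp5e, the epsilon subunit, rose by 0.58 ± 0.084 in aCF and 0.51 ± 0.086 in EpiSC against CF (adjusted p = 0.000968 and 0.0014). Atpif1, the inhibitor of the enzyme's reverse reaction, rose in all 3 comparisons, by 0.25 in aCF against CF, 0.22 in EpiSC against aCF and 0.47 in EpiSC against CF. Atp5g3 (0.49) and Atp5k (0.42) rose in EpiSC against CF. Of 4 further subunits of complexes I and III, Ndufa12 (0.36) and Uqcrq (0.27) rose in EpiSC against CF and Ndufs7 and Uqcr10 were not called.

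Of 49 mitochondrial ribosomal proteins, which translate the subunits coded in mitochondrial DNA, 29 rose in EpiSC against CF and 10 rose in each of the other comparisons, with none called lower. That is 59.2% beside 14.5% of all rows in EpiSC against CF. In the others it is 20.4%, beside 8.74% in aCF against CF and 4.61% in EpiSC against aCF. The medians of the 49 genes were 0.296 in EpiSC against CF, 0.126 in aCF against CF and 0.142 in EpiSC against aCF. Mrpl17 (0.72), Mrpl34 (0.67) and Mrpl20 (0.57) passed Bonferroni in EpiSC against CF. Assembly factors, which build the complexes, were mixed: of 29, 6 rose and 3 fell in EpiSC against CF, 3 rose and 3 fell in aCF against CF, and 4 rose and 1 fell in EpiSC against aCF. In either direction these were 31.0%, 20.7% and 17.2% of the factors, beside 32.2%, 18.1% and 9.61% of all rows. Cox18, which inserts a core subunit of complex IV, rose by 0.93 ± 0.105, Coa7 by 0.67 and Higd1a by 0.66 in EpiSC against CF, and Lyrm7, which serves complex III, fell by 0.64 ± 0.112 in aCF against CF (adjusted p = 0.00285).

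Of 13 electron carrier genes, 4 rose and 2 fell in EpiSC against CF, and 2 rose and 2 fell in aCF against CF. None was called in EpiSC against aCF. There 4 were higher at an unadjusted p under 0.05 in limma, beside 12.0% of all rows. Called in either direction were 46.2% and 30.8% of these genes, beside 32.2% and 18.1% of all rows (9.61% in EpiSC against aCF). Coq10a fell by 0.62 and Coq8a by 0.59 in EpiSC against CF, whereas Coq3 rose by 0.59 and Cycs, which codes for cytochrome c, by 0.28. Of 16 genes of the citrate cycle and pyruvate dehydrogenase, 5 rose and 1 fell in EpiSC against CF, and 1 rose in each of the other comparisons. That is 37.5% called beside 32.2% of all rows in EpiSC against CF. In the others it is 6.25%, beside 18.1% in aCF against CF and 9.61% in EpiSC against aCF. Pdk3, a kinase that inhibits pyruvate dehydrogenase, passed Bonferroni in aCF against CF (1.13 ± 0.102, adjusted p = 0.00887) and in EpiSC against CF (1.30 ± 0.11, adjusted p = 0.00562). Pdk1 rose by 1.04 and Mdh2 by 0.49, and Pdk4 fell by 0.63, in EpiSC against CF.

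Of 10 genes of fatty acid oxidation, 4 rose and 1 fell in EpiSC against CF, beside 14.5% and 17.7% of all rows. In aCF against CF 3 rose and 1 fell, beside 8.74% and 9.38% of all rows. None was called in EpiSC against aCF, where 9.61% of all rows were called. There 1 gene was higher at an unadjusted p under 0.05 in limma, beside 12.0% of all rows. Slc25a20, the carnitine carrier, rose by 0.68 and Hadh by 0.64 in EpiSC against CF. Of 9 regulators of mitochondrial biogenesis, 2 rose and 1 fell in aCF against CF, and 1 fell in each of the other comparisons. That is 33.3% called beside 18.1% of all rows in aCF against CF. In the others it is 11.1%, beside 32.2% in EpiSC against CF and 9.61% in EpiSC against aCF. Ppargc1a, the PGC-1alpha coactivator, Nrf1 and Tfam were not called, with differences of -0.35 ± 0.334, -0.20 ± 0.157 and 0.28 ± 0.141 in EpiSC against CF. Esrrg, an estrogen-related receptor, rose by 0.59 in aCF against CF and fell by 0.67 in EpiSC against aCF. Gabpb2, a partner of GABPA, fell by 0.72 in EpiSC against CF, and Tfb2m rose by 0.42 in aCF against CF.

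Within the groups, the members varied together to a small extent. Over the deviations of the 15 arrays from their group means, the mean pairwise Pearson correlation of the 34 members was 0.17, and 68.4% of 561 pairs were above 0. These values share arrays and hybridisation, and they are given as a description. The mean was 0.186 in complex I, 0.136 in complex II, 0.0129 in complex III and 0.209 in complex IV, beside 0.375 among ATP synthase genes, 0.159 among mitochondrial ribosomal proteins and 0.274 among heart muscle markers. Cox6b1 (0.751), Ndufc2 (0.742), Ndufb2 (0.698) and Uqcr11 (0.693) followed the mean of the other 33 members most closely over the arrays, and Uqcrc2 (-0.503), Ndufs5 (-0.0616) and Cox7b (-0.0186) the least. With identifiers and values taken as deposited, the mean pairwise correlation of the members was -0.0137.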

How the data were processed

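The deposited log2 values were centred by the authors on the median of all samples. Their processing, as the design text gives it, used GeneSpring GX 12.5, quantile normalization of probe signals, ExonRMA16 summaries and a filter on the raw signal percentile, which cannot be repeated on centred values. No source used here gives a genome build. The pairing of identifiers with values is described in the report. It paired 15303 identifiers, of which 13538 have a gene symbol in the platform annotation. Of 22206 probe sets, 19572 have 1 symbol, 0 have several and 2634 have none, and all 19572 symbols matched the RefSeq table (GRCm38.p6).

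Each comparison was fitted with limma 3.58.1 (lmFit and eBayes, R 4.3.3) on its 2 groups of 5 arrays, over all 22206 rows, and p-values were adjusted over all rows. The fit was tested on simulated data. No 2 arrays shared more than 2.45% of values. Members and gene lists were chosen with earlier results of these data known. All 34 members are named; array values are given for the members with the largest and smallest absolute difference per complex in each design comparison, and for others chosen after their values were seen (Ndufa4, Ndufa5 and 3 tissue-restricted forms). From other lists, members past Bonferroni are named, otherwise up to 4 with the largest difference among the Benjamini-Hochberg calls, and the named regulators and restricted forms. Alternatives were other adjustments, fits, normalization and row offsets, and leaving out arrays. Per-array means and promoter matches were computed in Python 3.11.15.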

Additional observations from a re-analysis of the deposited data

Results flagged for a closer look

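In 7 of the 102 sets of 5 arrays (34 members in 3 groups), 1 array lay far from the other 4 by Dixon's ratio, whose 95% critical value for 5 samples is 0.71. Chance alone gives about 1 in 20 such sets. Sdhd stood at 0.24 in aCF1, while the other aCF arrays lay between -0.07 and 0.01. Uqcr11 stood at 0.09 in EpiSC5, below the other EpiSC arrays at 0.26 to 0.28. The array CF4 was the highest of its group for Ndufa4, at -0.12 beside -0.35 to -0.3, and for Cox6a1, at 0.0 beside -0.18 to -0.14, and it also had the highest mean of all members in CF, -0.028. The other sets had small ranges: Ndufa13 at 0.06 in aCF4 (others -0.01 to 0.01), Ndufb3 at -0.07 in aCF5 (others -0.01 to 0.01) and Ndufb11 at 0.04 in EpiSC4 (others 0 to 0.01).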

How the results depend on the processing

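By Benjamini-Hochberg in place of Bonferroni, 5 members were called in EpiSC against aCF, 6 in aCF against CF and 19 in EpiSC against CF, in place of 0. Leaving out 1 array gave 2 to 5, 4 to 6 and 14 to 19 Benjamini-Hochberg calls, median differences of 0.06 to 0.094, 0.073 to 0.097 and 0.151 to 0.177, and 0 to 0 Bonferroni calls. With all 3 groups in 1 fit, EpiSC against aCF had 10 Benjamini-Hochberg calls and EpiSC against CF had 2 Bonferroni calls (Sdhd and Cox5a). Cox5a alone passed Bonferroni in EpiSC against CF (1 call) when only the paired rows were tested, after quantile normalization, and with trended and robust eBayes, which gave 3 Benjamini-Hochberg calls in EpiSC against aCF. Without aCF4 and aCF5, aCF against CF had 2. The cause of these shifts was not tested. Gene names depend on the pairing: as deposited, 1 row shorter and 1 row longer, the medians were -0.011, -0.026 and 0.022 in EpiSC against aCF, -0.012, -0.078 and -0.017 in aCF against CF, and -0.038, -0.047 and -0.004 in EpiSC against CF, and the mean correlation among members was -0.0137, -0.00493 and -0.00989. Those pairings read other rows: Benjamini-Hochberg calls were 11 as deposited and 10 at 1 row longer in EpiSC against CF, and 1 at 1 row longer in EpiSC against aCF, and 1 row shorter gave 3 Bonferroni calls in EpiSC against CF.

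Same-numbered samples of different groups had correlations of -0.0504 to 0.172, which do not settle whether the numbers pair them, and the labels do not say. A replicate block gave 0, 4 and 15 Benjamini-Hochberg calls in EpiSC against aCF, aCF against CF and EpiSC against CF. Most samples did not correlate best with their own number. The exceptions were replicates 1 and 4 in EpiSC against aCF and replicate 3 in aCF against CF. Signal over background is lost in centred values, so how it limits each member was not analysed here.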
